A study of Mus musculus with 7 samples.

Results

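The 47 genes described here encode the NRF2 pathway, the enzymes of glutathione and thioredoxin, the antioxidant enzymes and the enzymes that act on the carcinogen 4NQO (4-nitroquinoline 1-oxide). They were listed by symbol for their known function, with earlier results of these data known. All 47 were found among the 23955 gene names of the count table, leaving aside spike-in names. A total of 46 passed the filter on low counts, as did 13768 genes in all. The exception was Cyp1a1, which had at most 1 count in any library.

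The 7 libraries each come from a line of esophageal epithelial cells of mouse, of mixed strain, cultured on plastic in the medium KSFM. Of these, 2 were wild type (WT 1 and WT 2), 3 carried the p53R172H missense allele (mutant 1, 2 and 3) and 2 were p53 -/- (null 1 and null 3). All mutant and null lines also carried the treatment label 4NQO and the WT lines did not, so p53 genotype and 4NQO cannot be told apart in any comparison with WT. Xist, the RNA of the inactive X chromosome, was also far higher in the WT lines than in any mutant or null line (levels below). That difference cannot be told apart from the others either. The labels do not say how or when 4NQO was given, nor which animals the lines derive from. A p-value here therefore measures only the spread between these lines.

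NRF2, encoded by Nfe2l2, is a transcription factor that KEAP1 marks for degradation in unstressed cells. Oxidants and electrophiles modify KEAP1, NRF2 then accumulates, pairs with small MAF proteins and binds antioxidant response elements next to genes for glutathione synthesis, thioredoxin recycling, NADPH supply and conjugating enzymes. The carcinogen 4NQO is reduced by NQO1 and other reductases to a hydroxylamine that goes on to damage DNA, and it is also conjugated to glutathione. The esophageal epithelium is a classic target of 4NQO in rodents.

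The core of the antioxidant response element reads TGACNNNGC, and it was searched on both strands in RefSeq promoter windows of build GRCm38.p6, each running from 250 bases before to 50 bases after a transcription start. The first bases of the core can also read as the AP-1 site TGACTCA. Windows existed for 39 of the 47 genes and 11 of the 39 (28.2%) held the core, against 14% of all 27025 genes with a window. The stretches below are shown for the genes with a match that are called in the comparisons or that differed at least 2-fold between the WT lines. The 9 capitals mark the core on either strand, with 10 bases on each side, 5′ to 3′ along the gene.
Gstm5, chr3:107895802-107895830, plus strand: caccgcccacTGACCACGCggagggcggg
G6pdx, chrX:74428919-74428947, minus strand: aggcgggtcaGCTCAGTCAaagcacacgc
Gclm, chr3:122245413-122245441, plus strand: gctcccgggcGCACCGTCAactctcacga
Mgst1, chr6:138140461-138140489, plus strand: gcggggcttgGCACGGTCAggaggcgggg
Pgd, chr4:149166061-149166089, minus strand: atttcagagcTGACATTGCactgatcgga
Srxn1, chr2:152105542-152105570, plus strand: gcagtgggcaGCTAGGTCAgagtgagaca
Txnrd1, chr10:82859104-82859132, plus strand: ctggatttttGCTTTGTCAttctgacacg
In Gstm5 and Pgd the core ran along the gene, and in the other 5 genes the capitals read the core on the opposite strand. None of the 7 matches reads as the AP-1 site. Among the matches counted but not shown, those of Me1 and Prdx1 do. A match describes letters in this window only.

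Total counts per library ran from 12751118 (WT 2) to 47000225 (mutant 1), and the listed genes held 0.542 to 1.24% of them. Levels are in CPM (each gene's share of a library's counts, scaled to a common size), with library totals scaled by TMM. Trp53, the targeted gene, was at 4.71 and 8.73 CPM in the null lines and at 171.6 CPM or more in the other 5. Epithelial markers (7 listed, among them Krt5, Krt14, Trp63 and Cdh1) summed to 26938 and 37467 CPM in WT lines and to 5808 to 9781 CPM in the 5 labelled lines, with 6 or 7 of the 7 at 1 CPM or more in each line. Most of the sum was Krt5, at 13826 and 21396 CPM in WT and 2035 to 4214 CPM in labelled lines, and Krt14, at 11359 and 14406 against 2399 to 6430 CPM. Trp63, Cdh1 and Epcam overlapped between WT and labelled lines, at 168 to 441, 289 to 931 and 55.0 to 454 CPM over all 7. The mutant lines alone lay below both WT lines for Cdh1 (289 to 476 against 691 and 931 CPM) and Epcam (55.0 to 175 against 386 and 454 CPM). Krt13, a keratin of the upper layers, was at 85.9 and 173 CPM in WT and 1.45 to 47.5 CPM in labelled lines, and Krt4, another, was at most 9.72 CPM in any line and had no count in mutant 2. Fibroblast markers (8 listed) summed to 567, 376 and 420 CPM in mutant 1, mutant 3 and null 3, where 6 of the 8 reached 1 CPM, and to 5.61 to 9.73 CPM in the other 4 lines, where 1 to 4 did. Lum had no count in 6 lines and Thy1 was below 0.5 CPM in all 7. Immune and endothelial markers summed to at most 6.16 and 2.05 CPM. In bulk RNA, fewer cells that express a gene and less RNA per cell cannot be told apart.

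The listed genes lay on both sides of WT. In mutant against WT, 22 of the 46 tested genes (47.8%) had a log2 fold change above 0, against 54.4% of all genes, and the median was -0.06, against 0.08 over all genes. In null against WT 28 did (60.9%, against 53.6%), with a median of 0.29 against 0.06. In labelled against WT 29 did (63%, against 54.2%), with a median of 0.20 against 0.06. The median log2 ratio of the 46 genes to the WT mean was between -0.05 and 0.12 in 5 of the libraries, -0.12 in WT 2 and 0.52 in null 1. The heat map by library shows single genes far from WT on either side.

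**Figure D1:**
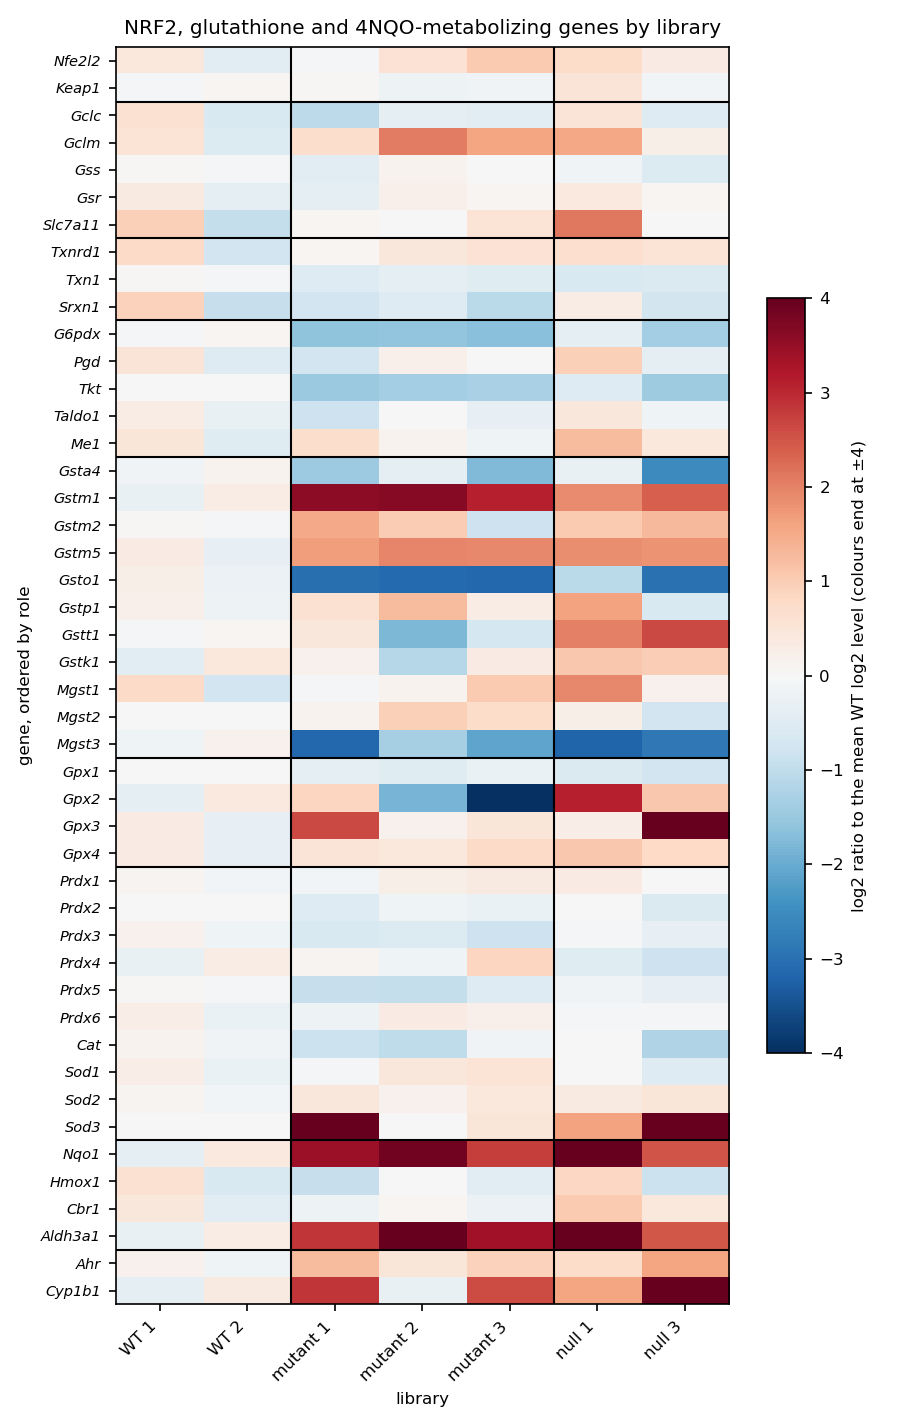
Each row is 1 of the 46 tested genes, ordered by role with lines between roles, and each column 1 library. Colour is the log2 ratio to the mean WT log2 level. Gstm1, Nqo1 and Aldh3a1 are red in all 5 mutant and null columns, Gsto1 and Mgst3 are blue in all 5, and Cyp1b1, Gpx3 and Sod3 are at their highest in null 3.

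The first question was which genes differ between p53R172H cells with the 4NQO label and WT cells. Of the 46 genes, 2 rose and 4 fell at an adjusted p under 0.05 in edgeR's quasi-likelihood test. Over all genes tested, 3.3% rose and 4.13% fell (7.42% in either direction), beside 4.35% and 8.7% of the listed genes. The 2 that rose were Gstm1 and Gstm5, and the 4 that fell were Gsto1, G6pdx, Tkt and Prdx5. The edgeR adjusted p of the 6 genes lay between 0.0139 and 0.0495. Leaving out WT 1, WT 2 or mutant 3 left none of the 46 called, and leaving out mutant 2 left 1 (Gstm1). DESeq2 called 13, 5 higher and 8 lower, where it called 23.8% of all genes. At an unadjusted p under 0.05 there were 14 (30.4%, against 30.5% of all genes). The mutant lines lay entirely above WT for 10 listed genes (21.7%, against 26.9% of all genes) and entirely below for 11 (23.9%, against 25.7%).

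Cells without p53 were compared with WT next. No listed gene was called by edgeR, where 0.0726% of all genes rose and 0.0654% fell (0.138% in either direction). At an unadjusted p under 0.05 there were 14 of 46 (30.4%, against 20.2% of all genes), 8 higher (17.4%, against 11.2%) and 6 lower (13%, against 9.01%), and DESeq2 called 11 (11.8% of all genes). The null lines lay entirely above WT for 13 (28.3%, against 29.1% of all genes) and below for 10 (21.7%, against 27.1%). Without null 1, Gsto1 was called lower.

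With the mutant and null groups averaged, the 5 4NQO-labelled lines were set against the 2 WT lines. Here 2 listed genes rose (Gstm1 and Gstm5; 1.9% of all genes rose) and 4 fell (Gsto1, Mgst3, G6pdx and Tkt; 2.8% of all genes fell). None of the 46 was called without WT 1 or without WT 2, 2 were called without mutant 2 (Gstm1 and Mgst3) and 1 without mutant 3 (Gstm1). At an unadjusted p under 0.05 there were 16 (34.8%, against 28.1% of all genes). In 15 of the 46 genes the 5 labelled lines all lay on one side of both WT lines. They were 7 higher (15.2%, against 17.4% of all genes) and 8 lower (17.4%, against 16.4%). The plot of these genes by group shows them line by line.

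**Figure D2:**
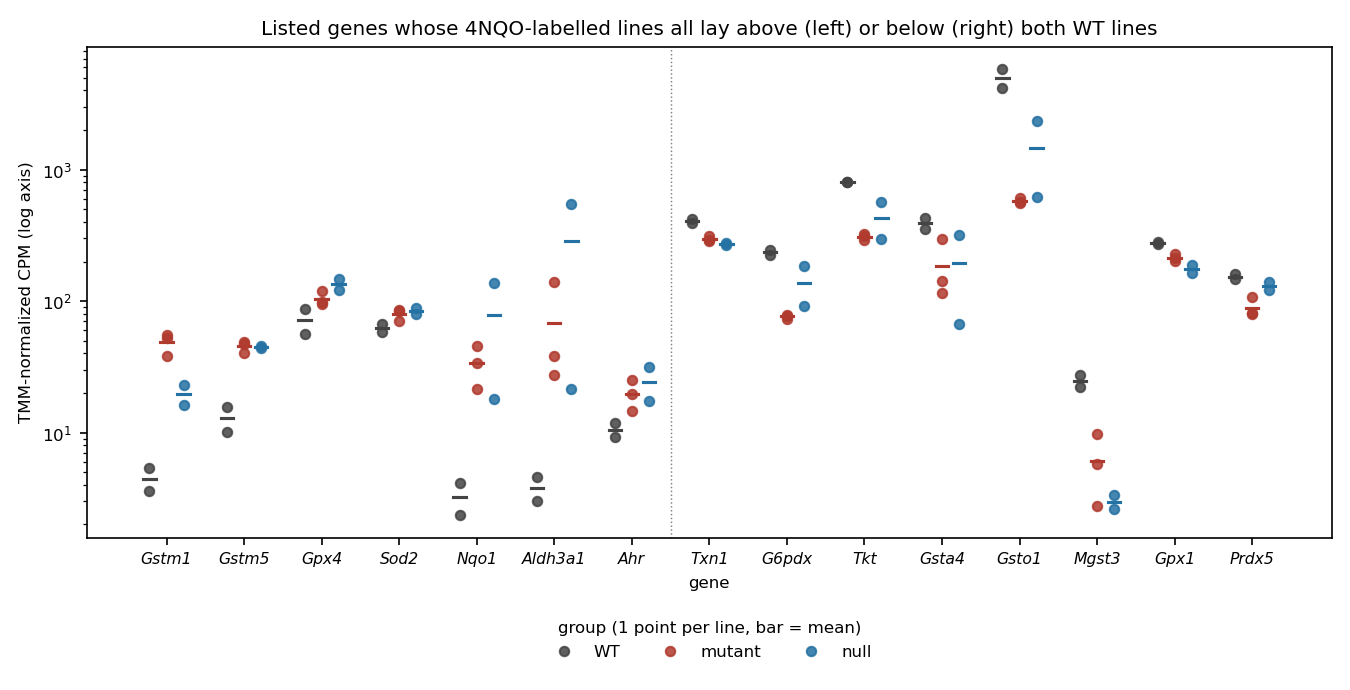
TMM-normalized CPM on a log axis for the 15 genes whose 5 labelled lines all lay above (left of the dotted line) or below (right) both WT lines, with 1 point per line and a bar at the group mean. The WT points of Nqo1 and Aldh3a1 sit below 5 CPM and all other points of these genes at 18.0 CPM or more.

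Neither regulator was called in any comparison. Nfe2l2, encoding NRF2, was at 318 and 177 CPM in WT 1 and WT 2, at 225, 355 and 489 CPM in mutant 1, 2 and 3 and at 392 and 296 CPM in null 1 and null 3, so the groups overlapped. Its log2 fold change was 0.53 (SE 0.390, edgeR adjusted p = 0.387) in mutant against WT, 0.48 (SE 0.422, adjusted p = 0.544) in null against WT and 0.50 (SE 0.363, adjusted p = 0.396) in labelled against WT lines. Keap1, its inhibitor, was at 42.7 and 48.5 CPM in WT, 47.3, 39.8 and 41.7 CPM in mutant and 65.4 and 42.6 CPM in null lines. The Keap1 log2 fold change was -0.09 (SE 0.221, edgeR adjusted p = 0.812) in mutant against WT, 0.25 (SE 0.243, adjusted p = 0.591) in null against WT and 0.08 (SE 0.205, adjusted p = 0.829) in labelled against WT lines. The last was below 0 without null 1 (-0.09) or without WT 1 (-0.00348). These are levels of RNA, whereas KEAP1 acts on the NRF2 protein.

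Nqo1, the quinone reductase that also activates 4NQO, had its lowest levels in the WT lines, 2.35 and 4.14 CPM (69 and 51 counts). The mutant lines had 33.7, 45.7 and 21.4 CPM, null 1 had 138 CPM and null 3 had 18.0 CPM, so the lowest labelled line lay above the higher WT line. The log2 fold change was 3.40 (SE 0.916, edgeR adjusted p = 0.0677) in mutant against WT and 4.61 (SE 0.997, adjusted p = 0.111) in null against WT. In labelled against WT lines it was 4.00 (SE 0.921, adjusted p = 0.0587), just outside the threshold. Without null 1 that value was 2.94 with adjusted p = 0.0336, and without null 3 it was 4.42 with adjusted p = 0.0278. Fitted on mutant and WT lines alone, Nqo1 was called higher in mutant lines (edgeR adjusted p = 0.0165), and DESeq2 called it in all 3 comparisons with WT. Over all alternatives the adjusted p of Nqo1 in labelled against WT ranged from 2.14e-07 (DESeq2) to 0.354 (without WT 2). Mutant and null lines differed by -1.21 (SE 0.759, edgeR adjusted p = 0.495). Nqo1 was highest in null 1 and mutant 2, whose fibroblast markers summed to 8.03 and 9.73 CPM. In WT 1 and WT 2, where Nqo1 was lowest, they summed to 5.61 and 8.20 CPM. The part of these markers was not tested.

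Aldh3a1, an aldehyde dehydrogenase of squamous epithelia and cornea, followed the same order of lines at the extremes. WT 1 and WT 2 were at 2.99 and 4.63 CPM, mutant lines at 27.2, 139 and 38.5 CPM, null 1 at 549 CPM and null 3 at 21.3 CPM. Null 1 was 25.8 times null 3, so the null mean joins very unlike lines. The log2 fold change in null against WT lines was 6.25 (SE 1.68, edgeR adjusted p = 0.14). DESeq2 called Aldh3a1 higher in mutant, null and labelled lines, each against WT. In a fit of mutant and WT lines alone, edgeR also called it higher. The other enzymes of this role overlapped between WT and labelled lines. Hmox1, heme oxygenase 1, was at 284 and 121 CPM in WT, 97.2 to 186 CPM in mutant and 328 and 103 CPM in null lines. Cbr1, a carbonyl reductase, was at 37.7 and 20.1 CPM in WT, 23.4 to 28.9 CPM in mutant and 57.0 and 37.1 CPM in null lines, so mutant lay below null lines, by -0.89 on the log2 scale (SE 0.320, edgeR adjusted p = 0.317).

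Of the 11 tested glutathione transferases, which join glutathione to electrophiles, edgeR called 2 higher and 1 lower in mutant against WT, and the other 8 did not pass. Gstm1, of the mu class, was at 3.57 and 5.36 CPM in WT 1 and WT 2, at 52.4, 55.7 and 38.2 CPM in mutant lines and at 16.3 and 23.1 CPM in null lines. The 3 groups did not overlap: WT was lowest, null intermediate and mutant highest. In mutant against WT its log2 fold change was 3.46 (SE 0.338, edgeR adjusted p = 0.0139), and in labelled against WT 2.80 (SE 0.316, adjusted p = 0.0187). In null against WT it was 2.15 (SE 0.334, edgeR adjusted p = 0.0767), which did not pass, and mutant lines lay above null lines by 1.31 (SE 0.299, adjusted p = 0.264). DESeq2 called that last difference, as its only listed gene in mutant against null lines. In null against WT, DESeq2 and edgeR with no filter called Gstm1 higher, and Gstm5 likewise.

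Gstm5, a second mu-class enzyme, stood at nearly one level in all labelled lines. It was at 15.6 and 10.1 CPM in WT 1 and WT 2, 40.1, 48.7 and 47.6 CPM in mutant and 45.5 and 44.0 CPM in null lines. The log2 fold change was 1.82 (SE 0.245, edgeR adjusted p = 0.0212) in mutant against WT, 1.80 (SE 0.259, adjusted p = 0.0674) in null against WT and 1.81 (SE 0.234, adjusted p = 0.0256) in labelled against WT. Its calls too were lost without WT 1, WT 2, mutant 2 or mutant 3, with adjusted p from 0.0521 to 0.227. Gstm2, the third mu-class gene listed, was at 8.20 and 7.71 CPM in WT but ranged from 4.45 (mutant 3) to 23.1 CPM (mutant 1) in labelled lines. The mu-class genes are close paralogs, and reads shared between them could have been split or dropped in counting, so their levels carry that uncertainty.

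Gsto1, the omega-class transferase that also reduces dehydroascorbate, was highest in the WT lines. WT 1 and WT 2 had 5794 and 4158 CPM, or 0.544 and 0.402% of all counts in those libraries. The mutant lines lay close together at 609, 569 and 560 CPM, null 3 was at 614 CPM and null 1 at 2323 CPM. Every labelled line was below both WT lines. The log2 fold change was -3.10 (SE 0.515, edgeR adjusted p = 0.0286) in mutant against WT and -2.43 (SE 0.440, adjusted p = 0.0393) in labelled against WT. Both calls were lost without WT 1, WT 2, mutant 2 or mutant 3, with adjusted p from 0.0727 to 0.255. In mutant against null lines it was -1.34 (SE 0.499, edgeR adjusted p = 0.322).

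Mgst3, a microsomal transferase, was at 22.1 and 27.6 CPM in WT, 2.75, 9.71 and 5.74 CPM in mutant and 2.62 and 3.34 CPM in null lines. It fell in labelled against WT lines by 2.55 on the log2 scale (SE 0.452, edgeR adjusted p = 0.0377). That call was lost without WT 1, WT 2, mutant 3, null 1 or null 3, with adjusted p from 0.0646 to 0.308. The 2 single comparisons did not pass, at -2.04 (SE 0.515, edgeR adjusted p = 0.0599) in mutant against WT and -3.06 (SE 0.616, adjusted p = 0.1) in null against WT. DESeq2 called Mgst3 lower in both. In mutant against WT it was also called with limma-voom, the 5 CPM filter, the newer quasi-likelihood form and without mutant 1. Gsta4, the alpha-class enzyme that conjugates the lipid peroxidation product hydroxynonenal, was at 354 and 428 CPM in WT and at 67.2 (null 3) to 319 CPM (null 1) in labelled lines. Krt5, Krt14 and Krt13 were lower in the same 5 lines as Gsto1, Mgst3 and Gsta4. The other 4 epithelial markers overlapped with WT over these 5 lines. In the mutant lines alone, Cdh1, Epcam and Krt4 also lay below both WT lines. The part of these markers was not tested.

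The remaining transferases overlapped between WT and labelled lines. Gstp1, the pi-class enzyme, was at 72.1 and 54.8 CPM in WT and spread from 41.5 CPM in null 3 to 190 CPM in null 1. Mgst1 was at 35.7 and 12.6 CPM in WT and 20.7 to 80.5 CPM in labelled lines, and Mgst2 was at 13.4 and 13.5 CPM in WT and 7.82 to 26.1 CPM. Gstk1 was at 1.76 to 8.31 CPM over all 7 lines, with WT lines at 2.93 and 5.28 CPM and null lines at 8.31 and 7.78 CPM. Gstt1 had 33 counts or fewer in every library and none in mutant 2, and its difference between mutant and null lines was -3.32 (SE 1.24, edgeR adjusted p = 0.323).

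The pentose phosphate pathway regenerates the NADPH that glutathione and thioredoxin reductases use, and 2 of its enzymes fell in labelled against WT lines. G6pdx, glucose-6-phosphate dehydrogenase, was at 226 and 246 CPM in WT, 77.5, 78.7 and 73.4 CPM in mutant and 185 and 91.6 CPM in null lines. Its log2 fold change was -1.63 (SE 0.277, edgeR adjusted p = 0.0297) in mutant against WT and -1.20 (SE 0.247, adjusted p = 0.048) in labelled against WT, and mutant lines lay below both null lines (-0.85, SE 0.276, adjusted p = 0.299). G6pdx is on the X chromosome, and Xist, the RNA of the inactive X, was at 675 and 1653 CPM in WT lines and at most 0.964 CPM in the others. This difference in Xist goes with every comparison with WT, and its part in this or any other result was not tested.

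Tkt, transketolase, was at 804 CPM in both WT lines, 290, 315 and 324 CPM in mutant and 564 and 299 CPM in null lines. It fell by 1.38 on the log2 scale (SE 0.264, edgeR adjusted p = 0.0361) in mutant against WT and by 1.14 (SE 0.236, adjusted p = 0.0484) in labelled against WT lines. In labelled against WT the calls of G6pdx and Tkt were both lost with limma-voom and without WT 1, WT 2 or any one mutant line, and that of Tkt also without null 3, with adjusted p up to 0.343 for G6pdx and 0.340 for Tkt. In mutant against WT both were lost without WT 1, WT 2, mutant 2 or mutant 3, and Tkt also without mutant 1 (adjusted p = 0.0505). Null 1 was the labelled line nearest to WT for both G6pdx and Tkt. The other 3 genes of NADPH supply overlapped between WT and labelled lines. Pgd, the next dehydrogenase of the pathway, was at 331 and 164 CPM in WT and 137 to 449 CPM in labelled lines. Taldo1, transaldolase, was at 319 and 211 CPM against 145 to 357 CPM. Me1, malic enzyme, was at 62.1 and 31.3 CPM against 39.4 to 107 CPM.

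**Figure D3:**
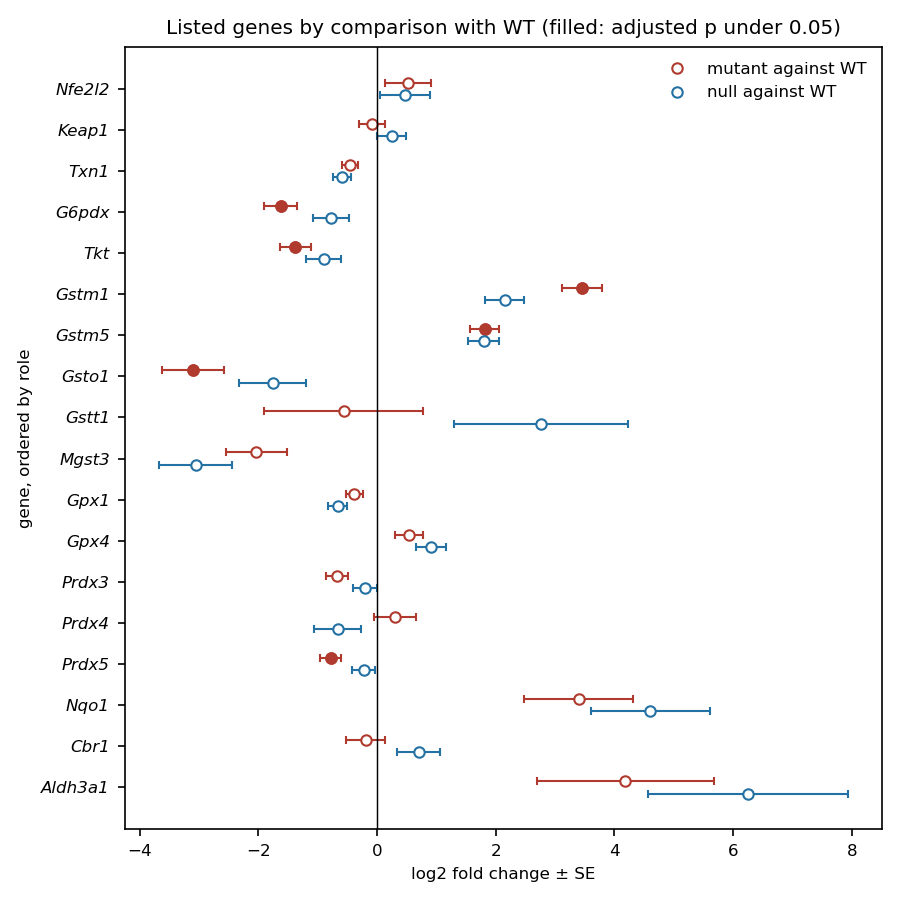
Log2 fold change with its SE against WT for the 18 listed genes whose statistics are given, ordered by role, with mutant in red and null in blue. Filled points passed an adjusted p of 0.05. Gstm1, Gstm5, Nqo1 and Aldh3a1 lie right of 0 in both comparisons and G6pdx, Tkt, Gsto1 and Mgst3 left of 0 in both.

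In glutathione synthesis and recycling edgeR called no gene, and DESeq2 called Gclm higher in mutant against WT. Gclc and Gclm, the catalytic and modifier subunits of glutamate-cysteine ligase, the rate-limiting enzyme of glutathione synthesis, differed in pattern. Gclm was at 72.6 and 34.3 CPM in WT and 81.0, 208 and 150 CPM in mutant lines, all above WT, with null lines at 145 and 58.8 CPM. Gclc was at 361 and 152 CPM in WT, 114, 181 and 176 CPM in mutant and 334 and 163 CPM in null lines, so it overlapped throughout. Slc7a11, the cystine importer, was at 440 and 118 CPM in WT, 228 to 336 CPM in mutant and 985 and 225 CPM in null lines. Gss, glutathione synthetase, kept between 33.3 and 53.9 CPM in all 7 lines, and Gsr, glutathione reductase, between 66.3 and 115 CPM.

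Of the thioredoxin system, Txn1, thioredoxin itself, was at 421 and 393 CPM in WT, 286, 311 and 293 CPM in mutant and 267 and 274 CPM in null lines. All labelled lines lay below WT, by -0.52 on the log2 scale (SE 0.123, edgeR adjusted p = 0.0608), which did not pass, and null lines by -0.59 (SE 0.150, adjusted p = 0.132). DESeq2 called Txn1 lower in mutant, null and labelled lines, each against WT. With a filter of 5 CPM in 2 libraries, edgeR called it lower in labelled against WT. Txnrd1, thioredoxin reductase, was at 358 and 125 CPM in WT and 223 to 337 CPM in labelled lines. Srxn1, which restores oxidized peroxiredoxins, was at 132 and 36.1 CPM in WT and 32.6 to 85.6 CPM in labelled lines.

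Of the enzymes that remove peroxide and superoxide, edgeR called Prdx5, in mutant against WT. DESeq2 also called Gpx1 and Prdx3 lower in mutant against WT, Gpx1 lower and Gpx4 higher in null against WT, and Prdx5 and Gpx1 lower and Gpx4 higher in labelled against WT. Prdx5 was at 160 and 147 CPM in WT, 81.2, 79.3 and 107 CPM in mutant and 140 and 122 CPM in null lines, and it fell in mutant against WT by 0.78 on the log2 scale (SE 0.179, edgeR adjusted p = 0.0495). Leaving out any one of the 7 libraries lost that call, with adjusted p from 0.056 to 0.241, as did limma-voom and the robust fit. Prdx3, like Prdx5 a peroxiredoxin of mitochondria, was at 91.7 and 71.6 CPM in WT, 45.6 to 55.4 CPM in mutant and 78.4 and 64.2 CPM in null lines. Both lay lower in mutant than in null lines without passing, at -0.56 (SE 0.179, edgeR adjusted p = 0.299) for Prdx5 and -0.47 (SE 0.184, adjusted p = 0.333) for Prdx3. Prdx4, of the endoplasmic reticulum, was at 26.7 and 39.8 CPM in WT, 28.9 to 59.2 CPM in mutant and 23.5 and 18.4 CPM in null lines, and it differed between mutant and null by 0.97 (SE 0.366, adjusted p = 0.328).

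Prdx1, Prdx2 and Prdx6 spanned 507 to 707 CPM, 153 to 232 CPM and 277 to 416 CPM over the 7 lines. Cat, catalase, was at 408 and 340 CPM in WT and 162 to 375 CPM in labelled lines. Sod1, the cytosolic superoxide dismutase, spanned 73.8 to 153 CPM, and Sod2, the mitochondrial one, was at 67.5 and 58.5 CPM in WT and 70.9 to 88.0 CPM in labelled lines. Among glutathione peroxidases, Gpx1 was at 284 and 273 CPM in WT and 164 to 229 CPM in labelled lines, with a log2 fold change in null against WT of -0.66 (SE 0.157, edgeR adjusted p = 0.123). Gpx4, which removes lipid peroxides, lay the other way at 87.1 and 56.2 CPM in WT and 94.4 to 147 CPM in labelled lines, with 0.90 (SE 0.250, adjusted p = 0.145) in null against WT. Gpx2, the epithelial isoform, was at 8.27 and 14.4 CPM in WT, 19.9, 2.99 and 0.436 CPM in mutant 1, 2 and 3 and 94.8 and 23.0 CPM in null 1 and null 3.

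Ahr, the receptor that induces Cyp1 genes, was at 11.7 and 9.26 CPM in WT and 14.6 to 31.5 CPM in labelled lines, all above WT, and edgeR did not call it. DESeq2 called Ahr and Cyp1b1 higher in labelled against WT, and Cyp1b1 also in null against WT. Cyp1b1 and the secreted antioxidant enzymes differed widely between lines of one group. Cyp1b1, a cytochrome P450 that activates polycyclic carcinogens, was at 3.88 and 6.33 CPM in WT, 36.0, 4.03 and 30.7 CPM in mutant 1, 2 and 3 and 14.8 and 86.8 CPM in null 1 and null 3. Cyp1a1, its better known relative, had at most 1 count in any library, below the detection floor of 3 counts. Sod3, the extracellular superoxide dismutase, had no count in WT or mutant 2, 1 count in mutant 3 and 4 in null 1, but 185 in mutant 1 and 249 in null 3 (3.76 and 9.45 CPM). Gpx3, the plasma peroxidase, had 20 counts in mutant 1, 103 in null 3 and at most 2 elsewhere. The 3 lines with the highest Cyp1b1 and the 2 with Sod3 and Gpx3 were among the 3 with fibroblast markers, which summed to 567, 376 and 420 CPM in mutant 1, mutant 3 and null 3 and to at most 9.73 CPM in the others. The part of those markers was not tested.

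No listed gene was called between mutant and null lines, where edgeR called none of the 13768 genes. At an unadjusted p under 0.05 there were 8 of 46 (17.4%, against 14% of all genes), 2 higher (6.35% of all genes) and 6 lower (7.63%). Nfe2l2 differed by 0.05 (SE 0.384, edgeR adjusted p = 0.967) and Keap1 by -0.33 (SE 0.220, adjusted p = 0.515). Groups did not overlap for 4 genes higher in mutant lines (8.7%, against 16% of all genes) and 9 lower (19.6%, against 15.1%).

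Lines of one group also differed from each other in these genes. In WT 1, 8 of 43 listed genes with at least 1 CPM in either WT line (18.6%) were at least 2-fold higher than in WT 2 and none was 2-fold lower, whereas 4.02% of all such genes were higher and 2.43% lower. The 8 were Slc7a11 (3.74 times), Srxn1 (3.64), Txnrd1 (2.87), Mgst1 (2.84), Gclc (2.37), Hmox1 (2.35), Gclm (2.11) and Pgd (2.01). Nqo1 was not among them, at 0.567 times the level in WT 2, and Nfe2l2 was at 1.80 times. In null 1, 16 of 46 (34.8%) were at least 2-fold higher than in null 3, against 7.37% of all genes, and 3 (6.52%) were lower, against 13.1%. The highest ratios were those of Aldh3a1 (25.8), Nqo1 (7.66), Gsta4 (4.76), Gstp1 (4.59), Slc7a11 (4.38) and Gpx2 (4.13). Of the 8 genes higher in WT 1, 7 were also higher in null 1, which is 87.5% of the first set and 43.8% of the second. Txnrd1 was the exception, at 1.10 times null 3. How many of all genes were higher in both WT 1 and null 1 was not counted, so this overlap has no reference. Over all genes tested, the deviations of WT 1 and null 1 from their group means correlated at 0.14. Fibroblast markers summed to 8.03 CPM in null 1 and 420 CPM in null 3, and to 5.61 and 8.20 CPM in WT 1 and WT 2, and their part in the ratios was not tested.

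Promoter windows existed for 6 of the 8 genes that were higher in WT 1, and 5 of the 6 (83.3%) held the TGACNNNGC core in the stretches printed above, Slc7a11 being the exception. Of the 16 genes higher in null 1, 12 had a window and 5 of them (41.7%) held it. Over the whole list, 11 of the 39 genes with a window (28.2%) held it. Among all genes at least 2-fold higher in WT 1, 70 of 327 with a window (21.4%) held it, and among all genes tested 17.1% did. These genes were picked by their values, each ratio sets 1 library against 1, and no test was made.

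**Figure D4:**
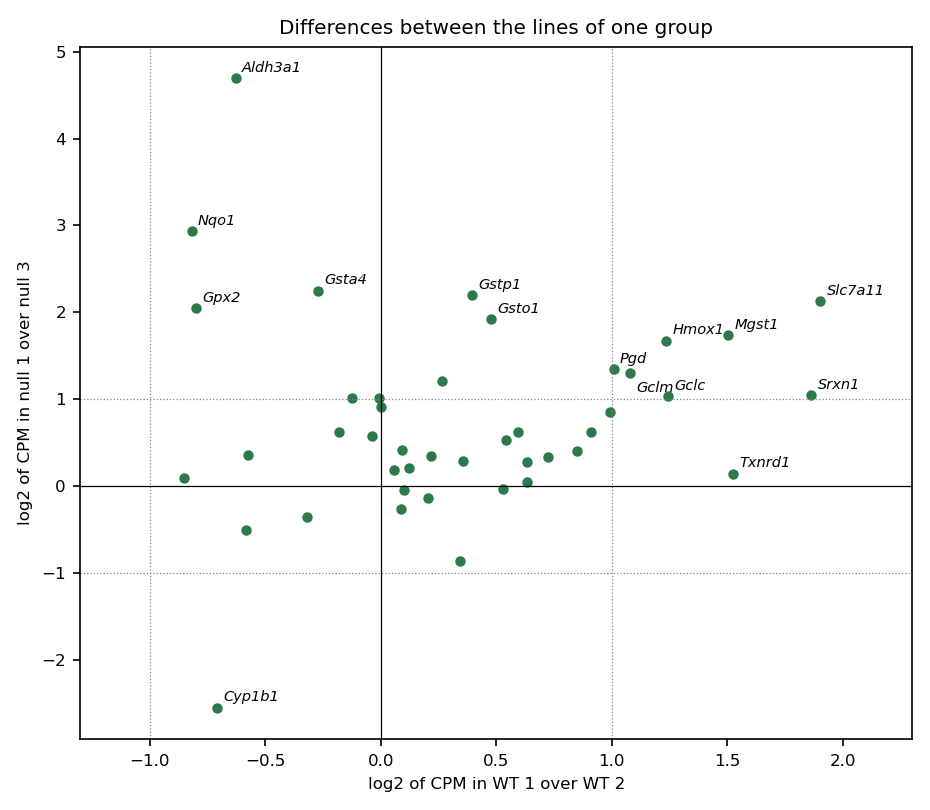
Each point is 1 of 43 listed genes with at least 1 CPM in a line of each pair, plotted by the log2 ratio of WT 1 to WT 2 (horizontal) and of null 1 to null 3 (vertical), with dotted lines at 2-fold. Slc7a11, Mgst1, Hmox1, Srxn1, Gclc, Gclm and Pgd lie at the upper right, and Nqo1 and Aldh3a1 at the upper left.

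A wider list of 73 genes of the same pathways was counted in the same way, of which 68 were tested. In mutant against WT 3 rose and 2 fell (4.41 and 2.94%, beside 3.3 and 4.13% of all genes). Nnt, the mitochondrial transhydrogenase that makes NADPH, was at 16.2 and 15.7 CPM in WT and 53.1 to 65.1 CPM in labelled lines, and its log2 fold change was 1.92 (SE 0.175, edgeR adjusted p = 0.0113). The others that rose were Aifm2, a suppressor of lipid peroxidation (1.02, SE 0.231), and Arnt, the partner of AHR (0.96, SE 0.176). Osgin1, an NRF2-responsive gene, fell from 57.4 and 58.9 CPM in WT to 21.8 to 30.8 CPM in labelled lines (-1.20 in mutant against WT, SE 0.187, adjusted p = 0.0255), and the theta-class transferase Gstt3 fell by 3.11 (SE 0.623). All 5 calls were lost without WT 1, WT 2 or mutant 3.

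In null against WT edgeR called Nnt of the wider list (1.89, SE 0.184, adjusted p = 0.0288). That call was lost without WT 1, WT 2, mutant 2, mutant 3 or null 3, with limma-voom, with the block and in a fit of these groups alone, with adjusted p from 0.0663 to 0.387. Mafk, a small MAF partner of NRF2, was at 66.1 and 51.2 CPM in WT and 134 and 110 CPM in null lines (1.06, SE 0.200, edgeR adjusted p = 0.0967), and Osgin1 differed by -1.04 (SE 0.210, adjusted p = 0.1). In labelled against WT Nnt rose (1.91, SE 0.167, edgeR adjusted p = 0.0124) and Osgin1 fell (-1.12, SE 0.168, adjusted p = 0.0277), and neither was called without WT 1 or without WT 2. Osgin1 was also not called there without mutant 2, mutant 3 or null 3. Akr1b8, an aldo-keto reductase, was at 119 and 113 CPM in WT and 43.6 to 91.5 CPM in labelled lines (-0.86, SE 0.188, edgeR adjusted p = 0.0533).

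In mutant against null lines edgeR called none of the 68, and 12 (17.6%, against 14% of all genes) had an unadjusted p under 0.05. The smallest p belonged to Tiparp, an AHR-induced gene, at 121 to 125 CPM in mutant and 84.8 and 83.0 CPM in null lines (0.54, SE 0.123, edgeR adjusted p = 0.264). Gstt3 differed by -2.32 (SE 0.612, adjusted p = 0.276) and Cyb5r3, a cytochrome b5 reductase, by 0.74 (SE 0.207, adjusted p = 0.287).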

How the data were processed

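The study's deposited table gives raw counts per gene for 7 RNA-seq libraries, made with a stranded mRNA kit per the labels' protocols. STAR 2.5.1b and build mm9 were used, per the submitters' processing notes; how reads were counted, with which strand setting and gene models, is not stated there, so overlapping genes and close paralogs are uncertain. Groups and numbers came from sample titles. Libraries of one group were distinct: a chi-square of their counts, divided by its degrees of freedom, was 55.9 to 233.6.

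All 7 libraries entered one fit in R 4.3.3 with edgeR 4.0.16 (TMM, default filter by group, quasi-likelihood F test in its older form, Benjamini-Hochberg over 13768 genes, threshold 0.05). SE was derived from the fold change and F. CPM used TMM-scaled totals. Groups have 2, 3 and 2 lines.

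The genes and lists were chosen with earlier results of these data known. Statistics are given for called genes, the 8 with the smallest p per comparison, and Nfe2l2, Keap1 and Nqo1; the wider list is named where called or among the 3 smallest p. Other gene values are CPM.

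The scripts were tested on simulated data. There edgeR called 5.97% of 2-fold and 64.2% of 4-fold changes in mutant against WT, and 1.49% and 47.8% in null against WT. A gene that was not called is therefore not shown to be unchanged. Alternatives were other scalings and filters, DESeq2 1.42.0, limma-voom 3.58.1, other fits, thinned libraries, the replicate number as a block, and each library left out in turn. The 92 spike-in names held 0 counts and were left out.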

Additional observations from a re-analysis of the deposited data

How the results depend on the processing

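The count of listed genes called in mutant against WT (6) became 13 with DESeq2 and 0 with a replicate block, and ran from 0 to 7 when libraries were left out one at a time. In labelled against WT (6) it became 14 with DESeq2, 0 with the block and 0 to 6 with libraries left out. In null against WT (0) it was 11 with DESeq2, 2 with no filter (Gstm1 and Gstm5, higher) and 0 to 1 with libraries left out, and in mutant against null (0) it was 1 with DESeq2. Over all genes, mutant against WT had 1022 calls, 3197 with DESeq2, 0 with the block and 0 to 1420 with libraries left out. Null against WT had 19 calls, 1548 with DESeq2, 0 with limma-voom or the block, 77 with no filter, 58 with the newer quasi-likelihood form and 0 to 55 with libraries left out. Mutant against null had 0, 604 with DESeq2, 2 with no filter, 1 with RLE or upper-quartile factors, the 5 CPM filter, the newer form or thinned libraries, and 0 to 22 with libraries left out. Labelled against WT had 648, 2819 with DESeq2, 380 with limma-voom, 0 with the block and 1 to 882 with libraries left out. The cause of these changes was not tested.

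The replicate numbers gave no sign of pairing: deviations of same-numbered libraries from their group means correlated at -0.02 for mutant 1 and WT 1 and for mutant 2 and WT 2, 0.14 for null 1 and WT 1, -0.41 for mutant 1 and null 1 and -0.02 for mutant 3 and null 3. At an unadjusted p under 0.05 the block left 10 listed genes in mutant against WT, 10 in null against WT, 4 in mutant against null and 13 in labelled against WT. A call lost under it does not show a weaker effect.

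Directions turned in few cases, all of genes that were not called. Keap1 in mutant against WT was 0.00155 with the block and -0.18 to 0.00705 with libraries left out (above 0 without WT 2), in null against WT it was -0.10 to 0.52 (below 0 without null 1), in mutant against null -0.60 to 0.019 (above 0 without null 1), and in labelled against WT -0.091 to 0.22 (below 0 without WT 1, -0.00348, or null 1). Nfe2l2 in mutant against null was -0.00357 with limma-voom and -0.26 to 0.28 with libraries left out (below 0 without mutant 3 or null 3), and Nqo1 there was -2.03 to 0.91 (above 0 without null 1). WT 2, the shallowest library, had a floor of 0.244 CPM for 3 counts, and Sod3, Gpx3, Gstt1 and Cyp1a1 lay below it there. In WT 1 these genes had at most 4 counts, so their WT levels were at or near the limit of detection. In null 3, Sod3, Gpx3 and Gstt1 had 249, 103 and 33 counts.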

Other observations

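Outside the listed genes, the wider list held other genes that differed widely between lines of one group. Fth1, the heavy chain of the iron store ferritin, was at 7931 and 2155 CPM in WT 1 and WT 2, at 1348, 1194 and 1566 CPM in mutant lines and at 18858 and 2637 CPM in null 1 and null 3. Sqstm1, the autophagy receptor p62 that binds KEAP1, was at 1889 and 464 CPM in WT 1 and WT 2 and at 766 to 1322 CPM in labelled lines. Gsta3, an alpha-class transferase, was at 74.7 and 78.4 CPM in WT and reached 363 and 282 CPM in mutant 2 and null 1, the lines in which Aldh3a1 and Nqo1 were highest. These genes were chosen after their values were seen and no test was made.

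Txnip, which binds and inhibits thioredoxin, had levels of 303 and 380 CPM in WT lines. In mutant 1, 2 and 3 it had 53.3, 872 and 1230 CPM, and in null 1 and null 3 it had 45.1 and 35.2 CPM. Mutant 2 and mutant 3 lay above both WT lines, and mutant 1 and both null lines lay below. It was also chosen after its values were seen.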
